A study of Mus musculus with 20 samples.

Results

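The genes described here encode the transport machinery and the gate of the primary cilium. They are 52 genes named by symbol, of 21509 protein-coding genes in each of the 2 deposited abundance tables, and all 52 were found in both tables. By role they comprise 24 genes of intraflagellar transport (IFT) and its motors, 11 genes of the BBSome and its assembly, 4 genes that handle ciliary membrane proteins and lipids, and 13 genes of the transition zone. Levels are in TPM (transcript abundance per length, scaled so that each library sums to 1000000), and all 52 genes passed the minimum mean of 1 TPM for testing in both tables, so none was set aside for low values.

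Poly(A) RNA was sequenced from DC2 cells, an immortalized line made from principal cells of the distal caput of the mouse epididymis. In the first experiment 6 libraries came from cells under laminar flow at 1 dyn/cm2 for 3 h (flow) and 6 from cells kept without flow (static). In the second experiment 4 libraries came from cells transfected with a mixture of siRNAs against Ift88 and 4 from cells given a scrambled control siRNA. The labels of these libraries name only the siRNA, and that the cells were under flow is known from the methods. By the methods the cells had been held in low-serum medium, in which they grow primary cilia. For siRNA-treated cells that timeline is described for calcium assays and differs from that of the first experiment. A single cell line stands behind all 20 libraries, so the p-values measure the spread between libraries of that line, and whether these were separate cultures is not stated in the labels. In such bulk samples, fewer ciliated cells and less RNA per cell cannot be told apart.

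Primary cilia are built and maintained by IFT, in which trains of the IFT-B and IFT-A complexes carry cargo along the axoneme, outward on the kinesin-2 motor and back on the dynein-2 motor. The BBSome, recruited to membranes by the small GTPase Arl6, rides on these trains and moves membrane proteins out of the cilium. The transition zone at the base, made of the tectonic and Meckel (MKS) proteins on a scaffold of Cep290, Rpgrip1l and Nphp4, controls what enters and leaves. In the epididymis, primary cilia are found on immature epithelial cells and on basal cells, and the study asked whether these antennae sense flow.

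A few facts of the series bear on the values. The labels contradict each other for 1 library, titled flow and described as static under treatment. It was counted as flow replicate 6, and no gene of the 52 was called with it counted as static either, where 0.0% of all genes were. The labelled principal cell identity was not visible in its defining markers: of 6 listed, 5 were under 1 TPM in all 12 flow and static libraries and all 6 in the 8 siRNA libraries, and Rnase9 was listed at 0 in every library. Krt18 lay between 23.3 and 159 TPM over the 20 libraries, while Epcam did not pass 0.333 TPM. Of 5 epithelial markers, 2 were under 1 TPM in all 12 flow and static libraries and 2 in all 8 siRNA libraries. Foxj1, the master regulator of motile cilia, lay between 13.3 and 30.3 TPM. The axonemal gene Tekt4 was listed at 0 throughout and the outer dynein arm gene Dnah5 did not pass 0.0753 TPM. Of 14 multiciliated cell markers, 10 were under 1 TPM in all 12 flow and static libraries and 11 in all 8 siRNA libraries. In each experiment 3 of the 14 averaged at least 1 TPM. Of the 5 leukocyte markers, 3 were under 1 TPM in all 12 flow and static libraries and 4 in all 8 siRNA libraries. Cd68 reached 98.9 TPM, whereas Cd3e was listed at 0 and Ptprc stayed at or under 0.0878 TPM. The part of these levels in the results was not tested.

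TPM are scaled by transcript length, so levels can be compared between genes within a table. The transport and gate genes differed widely in transcript level. Arl3, the GTPase that releases lipid-modified cargo inside the cilium, was the most abundant in the static libraries, at 182 TPM on average with libraries from 165 to 196. Mkks, a chaperonin-like BBSome assembly factor, was the least abundant, at 2.99 TPM with libraries from 2.29 to 3.85. The median of the 52 means was 14.8 TPM in static and 14.5 TPM in flow libraries, and 16.3 TPM in both siRNA groups.

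Among the 7 core IFT-B genes, 6 formed a well-expressed block and Ift88 stood below it. The small GTPase Ift27 led the core, with static libraries from 67.6 to 89.4 TPM around a median of 84.0 TPM. The tubulin-binding subunit Ift81 was the lowest of the other six, with static libraries from 19.2 to 36.8 TPM around a median of 25.4 TPM. Ift88, the tetratricopeptide-repeat subunit that ciliogenesis requires, had static libraries from 3.95 to 5.07 TPM around a median of 4.70 TPM. Its highest static library was thus below the lowest of every other core gene. Ift88 transcripts made up 0.833% ± 0.0791 (SD, n = 6) of the summed IFT-B TPM in static cells and 0.613% ± 0.0144 (SD, n = 4) with control siRNA.

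The other complexes showed similarly uneven levels. Of the peripheral IFT-B genes, Ift20, which also acts at the Golgi, was the highest at 78.4 ± 6.88 TPM (SD, n = 6, static), and Traf3ip1, the microtubule-binding IFT54 subunit, was the lowest at 12.9 ± 1.48 TPM. In IFT-A, Ift43 averaged 62.3 TPM and Ift140 averaged 7.08 TPM. Of the motor genes, the dynein-2 light intermediate chain Dync2li1 averaged 32.9 TPM and the dynein-2 heavy chain Dync2h1 only 3.62 TPM. BBSome subunits lay closer together in static libraries, between 7.80 TPM for Bbs1 and 22.9 TPM for Bbs7, while Arl6 reached 38.8 TPM. With control siRNA the BBSome subunits spanned 9.03-fold and the motor genes 2.57-fold. In the transition zone, Tmem216 led the tectonic and MKS group at 35.3 TPM and Mks1 closed it at 3.68 TPM. The scaffold genes Cep290, Rpgrip1l and Nphp4 averaged 8.89, 5.67 and 4.35 TPM.

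**Figure D1:**
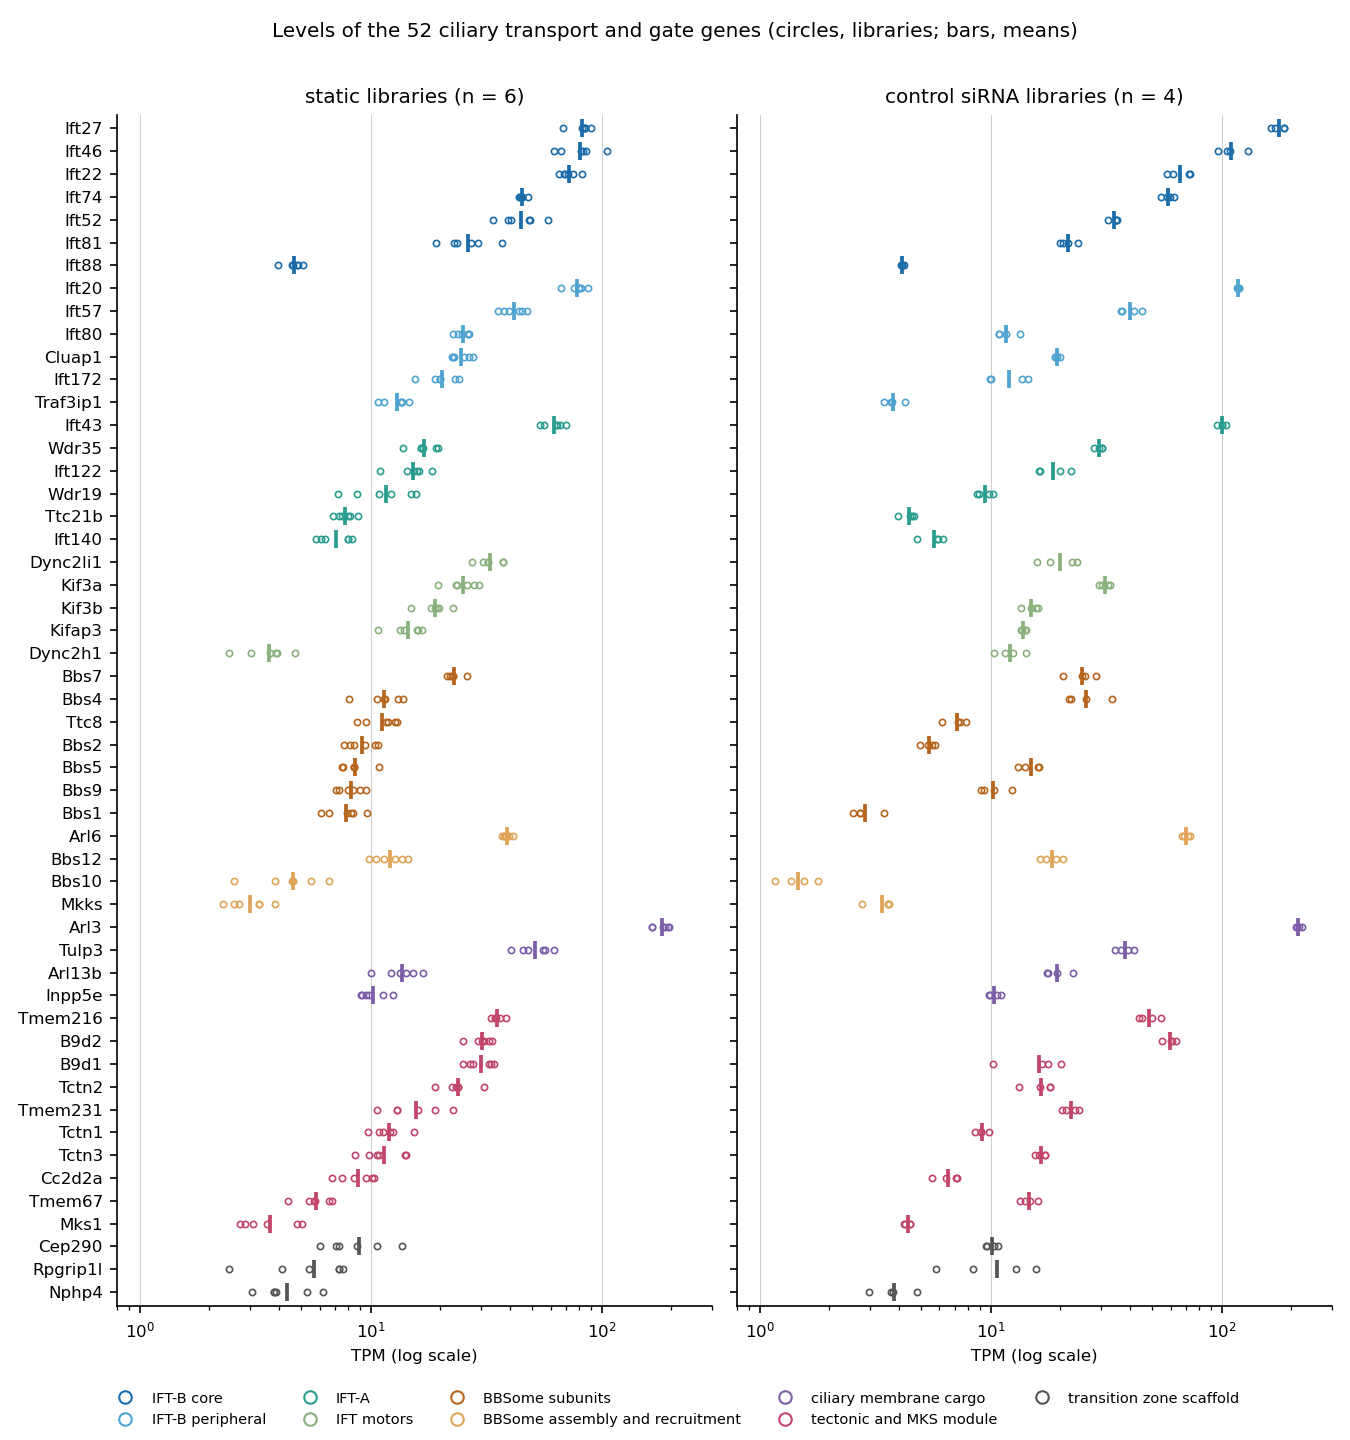
TPM (log scale) of all 52 genes in the 6 static libraries (left) and the 4 control siRNA libraries (right), ordered by static mean within each complex. Circles are libraries and vertical bars are means. Arl3 is the highest in both panels, and Ift88 lies apart from the other core IFT-B genes, at 4.64 TPM in static and 4.14 TPM in control siRNA libraries.

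The 2 tables were processed separately, so levels across them are set side by side with no test. The heavy chain gene Dync2h1 averaged 3.62 TPM in static and 12.2 TPM in control siRNA libraries, and Ift27 averaged 82.0 and 177 TPM. Differences in the other direction were seen for Traf3ip1 at 12.9 and 3.79 TPM, for the chaperonin-like Bbs10 at 4.62 and 1.47 TPM, and for Bbs1 at 7.80 and 2.86 TPM. Over the 52 genes, log2 means in the 2 groups had a Pearson r of 0.883 and a Spearman rho of 0.873, a description across genes, which are not independent replicates. The groups differ in transfection, in flow and in the processing of the tables. The methods also give siRNA-treated cells another seeding density and culture timeline, there described for calcium assays. These differences cannot be told apart.

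Many ciliary promoters carry an X-box, the site bound by RFX transcription factors, so promoter sequences of the genes were searched for its letters. RefSeq (GRCm38.p6) promoters, each of 300 bases from 250 before to 50 after the start site, were matched by symbol for 47 of the 52 genes, giving 53 windows. The genes Ift122, Ift80, Ift81, Tmem67 and Dync2li1 were not matched. The full motif was searched as GTTNCC and GGNAAC separated by 0 to 3 bases, a palindrome in these letters and so the same on both strands, and the half-site as GTTGCC or its reverse complement GGCAAC. A full match contains a half-site where its N is G on the first arm or C on the second. The 5 genes with a full match are printed with 7 bases on each side where the window allows, 5′ to 3′ on the gene's strand, with the matching letters in capitals. The positions are chr3:36613490-36613517 (minus strand) for Bbs7, chr16:49699227-49699253 (plus) for Ift57, chr11:87853184-87853211 (plus) for Mks1, chr5:122264411-122264431 (minus) for Tctn1 and chr19:40612352-40612378 (minus) for Tctn3.
Bbs7: cgccccgGTTGCCTTGGAAACcggccag
Ift57: ccctgcgGTTGCCTGGTAACggtgggg
Mks1: cgtctccGTTGCCAGGGGAACgaggcac
Tctn1: tgtgactGTTGCCCGGGCAAC
Tctn3: cccagcgGTTGCCAGGTAACgggaacc

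The 5 full matches are 9.43% of the 53 windows, where 0.921% of the promoters of genes tested in the flow experiment and 0.804% of all 32851 promoters hold one. A half-site was present in 21 of the 53 windows, or 39.6%, against 12.6% and 12.5%. By role, 9 of 20 IFT and motor genes, 3 of 11 BBSome genes, 1 of 4 membrane cargo genes and 8 of 12 transition zone genes had a half-site. The targeted gene Ift88 is among them, with the reverse-complement half-site just past its start, shown because Ift88 is the gene whose level the second experiment set out to lower (chr14:57424085-57424104, plus strand, capitals for the half-site).
Ift88: cgcgcctGGCAACggctggg
These matches describe the letters only. Median log2 fold changes of the 21 genes with a half-site and the 26 without were -0.0471 and -0.119 under flow, and 0.0451 and -0.0405 under Ift88 siRNA.

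**Figure D2:**
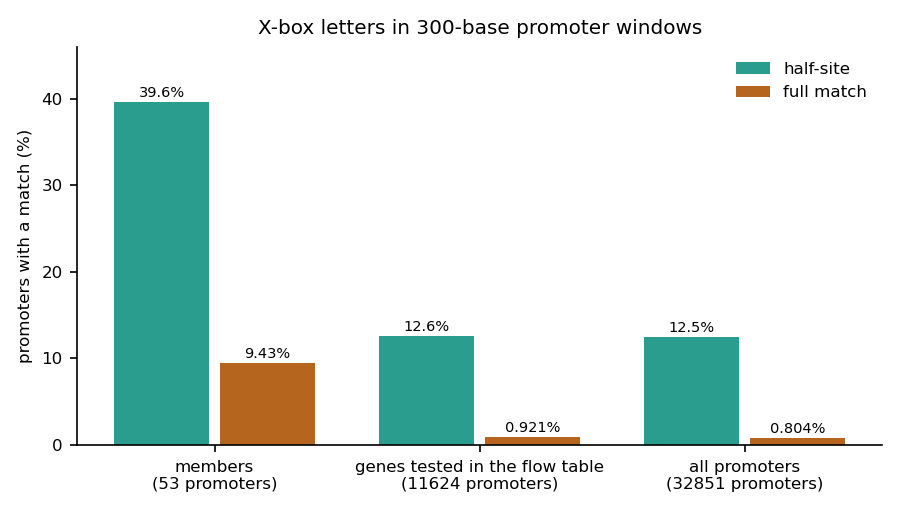
Share of promoter windows (%) that hold a half-site or a full X-box match, for the 47 of the 52 genes with a promoter in the table (53 windows), for the genes tested in the flow experiment and for all promoters. The ciliary genes stand at 39.6% and 9.43%, against 12.5% and 0.804% of all promoters.

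The siRNA experiment asked what cells under flow do when cilia are impaired through loss of Ift88. Ift88 itself, on chr14:57424062-57517936 (GRCm38, plus strand), measured 1.71, 1.27, 1.28 and 0.917 TPM in the 4 libraries with Ift88 siRNA and 4.21, 4.08, 4.15 and 4.12 TPM in the 4 controls. Every knockdown library was below every control library, and the remaining mean was 31.3% of the control mean. On the log2(TPM + 1) scale used for testing, which understates changes of genes this low, Ift88 fell by 1.17 (SE 0.134, limma, adjusted p = 0.00212). A two-sided exact permutation test of the same values gave p = 0.0286, the smallest that 4 against 4 libraries allow, and 0.0429 after adjustment over the 3 such tests made here.

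No other gene of the machinery was called. A gene was called when limma's adjusted p was under 0.05 and the change exceeded 1.5-fold, which held for 0.223% of the 11209 genes tested, and for 0.0714% in the lower direction. Ift88 was also the only one of the 52 with an unadjusted p under 0.05, where 13.9% of all genes tested had one, and the only one whose groups did not overlap, where 8.58% of all genes tested did not. Of the other 51, 26 were higher and 25 lower with Ift88 siRNA, with a median log2 fold change of 0.00740 beside 0.0168 for all genes tested. For 50 of these 51 the 95% interval of the difference lay within 1.5-fold in both directions, and it did for 90.0% of all genes tested. These intervals are on the log2(TPM + 1) scale, and with a pseudocount of 0.1 the count was 47 of 51, where 81.4% of all genes had such an interval. Bbs1, Mkks, Nphp4 and Rpgrip1l were then outside. Differences smaller than that were not excluded by these intervals.

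The partners of Ift88 in IFT-B kept within these bounds. Of the 12 other IFT-B genes, 6 were higher and 6 lower, with a median log2 fold change of -0.00293. Their extremes were Ift46 at -0.13 (SE 0.0845), a subunit of the core, and the large peripheral subunit Ift172 at 0.14 (SE 0.153). All 12 intervals lay between -0.32 and 0.48 on the log2 scale. Ift52, a direct neighbour of Ift88 in the complex, measured 38.2, 42.6, 34.4 and 35.9 TPM in knockdown and 35.4, 35.0, 32.1 and 34.8 TPM in control siRNA libraries. These ranges overlap, and the log2 difference was 0.13 (SE 0.0808, limma, adjusted p = 0.487). Summed over the 12 genes, IFT-B transcripts came to 676 ± 16.0 TPM in knockdown and 672 ± 13.4 TPM in control siRNA libraries (SD, n = 4 each), while the share of Ift88 in the IFT-B sum was 0.191% ± 0.0495 and 0.613% ± 0.0144.

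**Figure D3:**
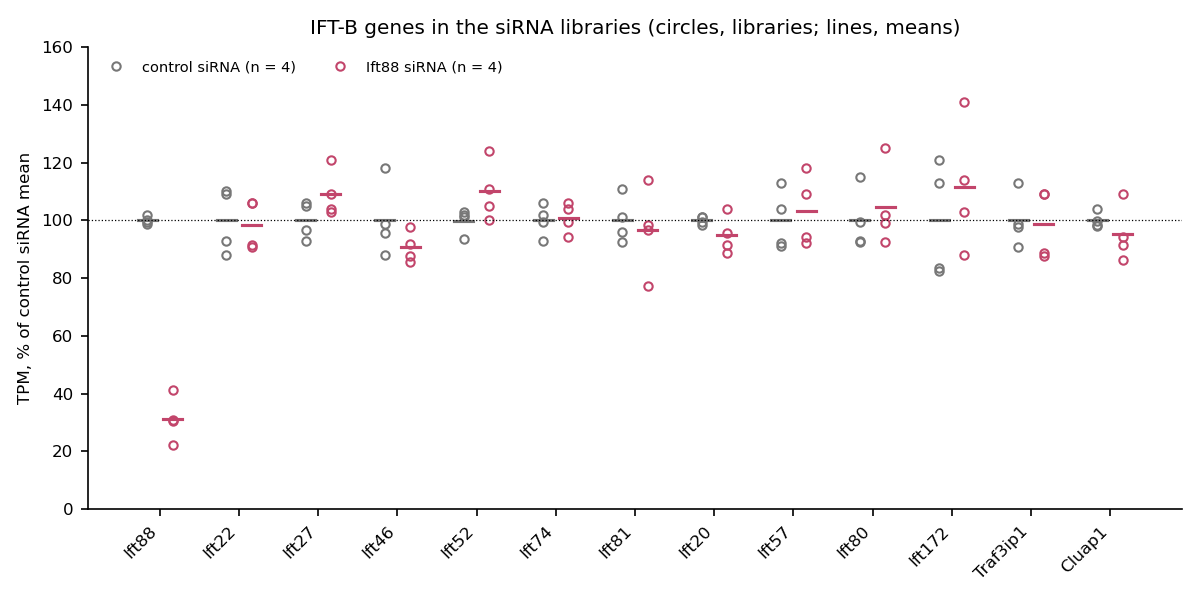
TPM of the 13 IFT-B genes in each siRNA library as a percentage of the control siRNA mean of that gene. Circles are libraries (4 per group) and short lines are means. Ift88 lies between 22.1% and 41.4% in the knockdown libraries, and the other 12 genes lie between 77.2% and 141%.

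The return complex and the motors showed small differences of both signs. The 6 IFT-A genes had a median log2 fold change of 0.0294, with the widest difference for Ift122 at 0.19 (SE 0.127). Among the motor genes, Dync2li1 measured 23.7, 23.2, 21.6 and 25.3 TPM in knockdown and 18.1, 22.5, 15.9 and 23.6 TPM in control siRNA libraries. The ranges overlap, and its log2 difference of 0.23 (SE 0.118, limma, adjusted p = 0.406) was the most positive of all 52 genes. The kinesin-2 genes Kif3a, Kif3b and Kifap3 gave 0.13, -0.081 and 0.0074.

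In the BBSome, the 7 subunits had a median log2 fold change of 0.0490 and the 4 assembly and recruitment genes one of -0.118. All 4 of the latter, Mkks, Bbs10, Bbs12 and Arl6, had negative values, and so they had with another scaling of the TPM, but 3 of 4 without control siRNA replicate 1 or Ift88 siRNA replicate 2. Mkks, at -0.21 (SE 0.122), measured 2.85, 2.70, 2.72 and 2.85 TPM in knockdown and 2.76, 3.60, 3.59 and 3.62 TPM in control siRNA libraries. A single low control library thus brought the groups into overlap.

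The membrane cargo genes and the gate did not separate the groups either. Arl13b, the ciliary GTPase whose protein marks cilia, measured 17.9, 17.9, 17.8 and 12.5 TPM in knockdown and 19.4, 17.7, 17.5 and 22.6 TPM in control siRNA libraries, a log2 difference of -0.22 (SE 0.126, limma, adjusted p = 0.462). Tulp3, which loads receptors onto IFT-A, was at 0.17 (SE 0.0844). The 10 tectonic and MKS genes had a median of 0.0232 and a range from -0.095 for Tmem67 to 0.13 for Tctn1. Rpgrip1l was the exception in precision: it measured 8.81, 9.20, 11.3 and 2.39 TPM in knockdown and 12.8, 15.7, 5.78 and 8.40 TPM in control siRNA libraries. Libraries of both groups spread several-fold, and its interval, from -1.24 to 0.33, was the widest of the 52 and did not exclude a change beyond 1.5-fold.

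The flow experiment asked how shear stress alters gene expression. None of the 52 genes was called, where limma called 0.105% of the 11388 genes tested, and 1 of the 52 had an unadjusted p under 0.05, where 3.85% of all genes had one. No member's flow and static libraries were free of overlap, as those of 0.544% of all genes tested were. For 51 of the 52 the 95% interval of the difference lay within 1.5-fold, and it did for 87.3% of all genes tested. The exception was again Rpgrip1l, at -0.25 with an interval from -0.72 to 0.23. With a pseudocount of 0.1 it was 47 of the 52, where 80.9% of all genes had such an interval, and Bbs4, Bbs9, Bbs10 and Wdr19 were outside as well.

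Small differences leaned one way. Of the 52 genes 38 were lower under flow, or 73.1%, where 61.2% of all genes tested were, and after rescaling the TPM by the median of ratios 33 of 52 were lower, or 63.5%, where 49.2% of all genes were. The median log2 fold change was -0.0601 for the 52 and -0.0264 for all genes. All 13 IFT-B genes were on the lower side, with medians of -0.139 in the core and -0.0618 in the periphery, while after rescaling 12 of 13 were. Within replicates 1 to 3 alone 9 of 13 were lower, where 5446 of all 11298 genes tested were. Within replicates 4 to 6 alone 12 of 13 were lower, where 7635 of all 11424 genes tested were. The medians were -0.0205 for IFT-A, -0.00489 for the motors, -0.117 for the BBSome genes, -0.0172 for the membrane cargo genes and -0.0684 for the transition zone. Genes of one complex in the same libraries are not independent, and no list was tested as a whole.

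**Figure D4:**
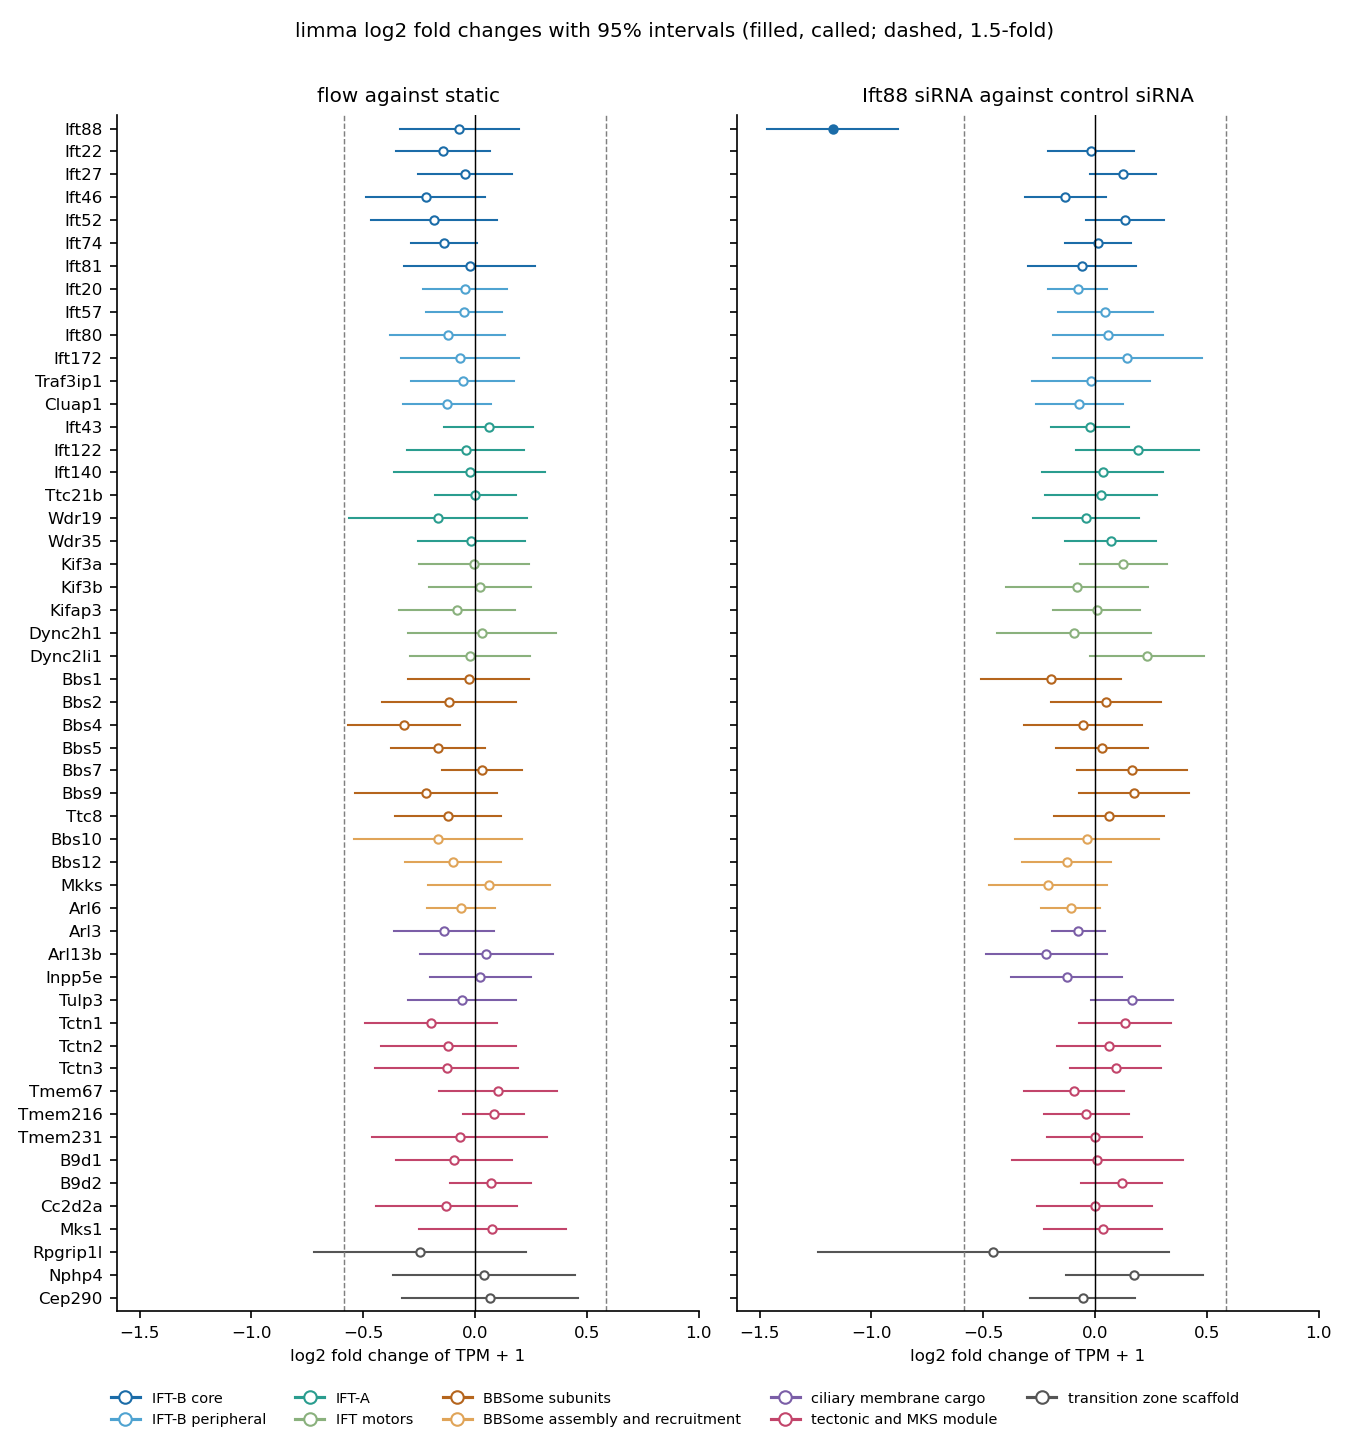
limma log2 fold changes (x axis, log2 of TPM + 1) of the 52 genes with 95% intervals, for flow against static (left, 6 libraries each) and Ift88 siRNA against control siRNA (right, 4 libraries each). A filled point is a called gene, and dashed lines mark 1.5-fold. Ift88 at -1.17 on the right is the only filled point, and Rpgrip1l has the widest intervals.

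Bbs4, a BBSome subunit that binds the centriolar satellite protein Pcm1, had the largest difference. Its static libraries ranged from 8.03 to 13.7 TPM with a median of 11.5 TPM, and its flow libraries from 7.84 to 10.2 TPM with a median of 8.74 TPM. The groups overlap, since static replicate 1 was the second lowest of all 12 libraries, and flow was lower than static in 5 of 6 same-numbered pairs. Its log2 difference was -0.32 (SE 0.116, limma, unadjusted p = 0.0160, adjusted p = 0.998). A two-sided exact permutation test of Bbs4 alone gave p = 0.0260, and 0.0429 over the 3 such tests. Bbs4 had been picked for its p among the 52 genes, so that adjustment does not cover the choice. Exons of Bbs4 (chr9:59321990-59353508, GRCm38, minus strand) overlap those of Adpgk on the opposite strand, and the strand setting of the quantification is not stated in the sources used here. Other BBSome subunits gave -0.22 for Bbs9, -0.17 for Bbs5, -0.12 for Bbs2 and Ttc8, -0.029 for Bbs1 and 0.031 for Bbs7.

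Ift88 did not separate by flow. Its flow libraries ranged from 3.24 to 5.73 TPM with a median of 4.38 TPM, around the static range of 3.95 to 5.07 TPM. The log2 difference was -0.070 (SE 0.124), and the exact permutation test gave p = 0.541.

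Flow and static libraries of the same number deviated together from their group means, so the replicate number was also entered into limma as a block. With the block still none of the 52 genes was called, where 0.597% of all genes were. An unadjusted p under 0.05 was seen for 6 of them, or 11.5%, where 11.1% of all genes had one. All 6 were lower under flow, as were 7.17% of all genes tested by the same rule. They were Bbs4 (limma, adjusted p = 0.190), the core IFT-B genes Ift52 (0.332), Ift46 (0.353), Ift22 (0.397) and Ift74 (0.447), and Tctn1 (0.449), a tectonic of the transition zone. Each of these 6 was lower under flow in 5 of 6 pairs, but the fit that picked them used the same pairs. Their pair counts are therefore no further support. Bbs5 was lower in 6 of 6 pairs (limma with the block, unadjusted p = 0.0588), and Cluap1 and Arl3, among others, in 5 of 6.

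Ift46 had static libraries from 62.1 to 105 TPM with a median of 82.1 TPM. Its flow libraries ranged from 54.1 to 84.6 TPM with a median of 68.0 TPM. The log2 difference was -0.22 (SE 0.0811 with the block). With 1 library left out of the unblocked fit it ranged from -0.29 to -0.14, and was smallest without static replicate 6. Ift52 had static libraries from 33.9 to 58.2 TPM with a median of 44.4 TPM. Its flow libraries ranged from 30.7 to 45.7 TPM with a median of 40.4 TPM. The difference was -0.18 (SE 0.0644 with the block). With 1 library left out of the unblocked fit it ranged from -0.26 to -0.11, and was smallest without static replicate 6. The groups overlap in both genes. The pair that went the other way was replicate 1 in Bbs4 and Ift46 and replicate 2 in Ift52, Ift22, Ift74 and Tctn1. None of the 52 was called by limma within replicates 1 to 3 alone or replicates 4 to 6 alone, where 0.0443% and 0.49% of all genes were. Within replicates 4 to 6, Ift46 (-0.38, SE 0.112), Bbs4 (-0.43, SE 0.132) and Ift52 (-0.27, SE 0.11) had unadjusted p-values under 0.05, where 6.67% of all genes had one, with limma adjusted p-values of 0.463, 0.533 and 0.718. Within replicates 1 to 3 none had an unadjusted p under 0.05 in limma, where 1.66% of all genes had one, and the 3 differences were -0.060, -0.21 and -0.10. The difference between the replicate sets was not tested. With limma's library weights none of the 52 was called, where 0.755% of all genes were, and 11 had an unadjusted p under 0.05, where 21.7% of all genes had one.

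**Figure D5:**
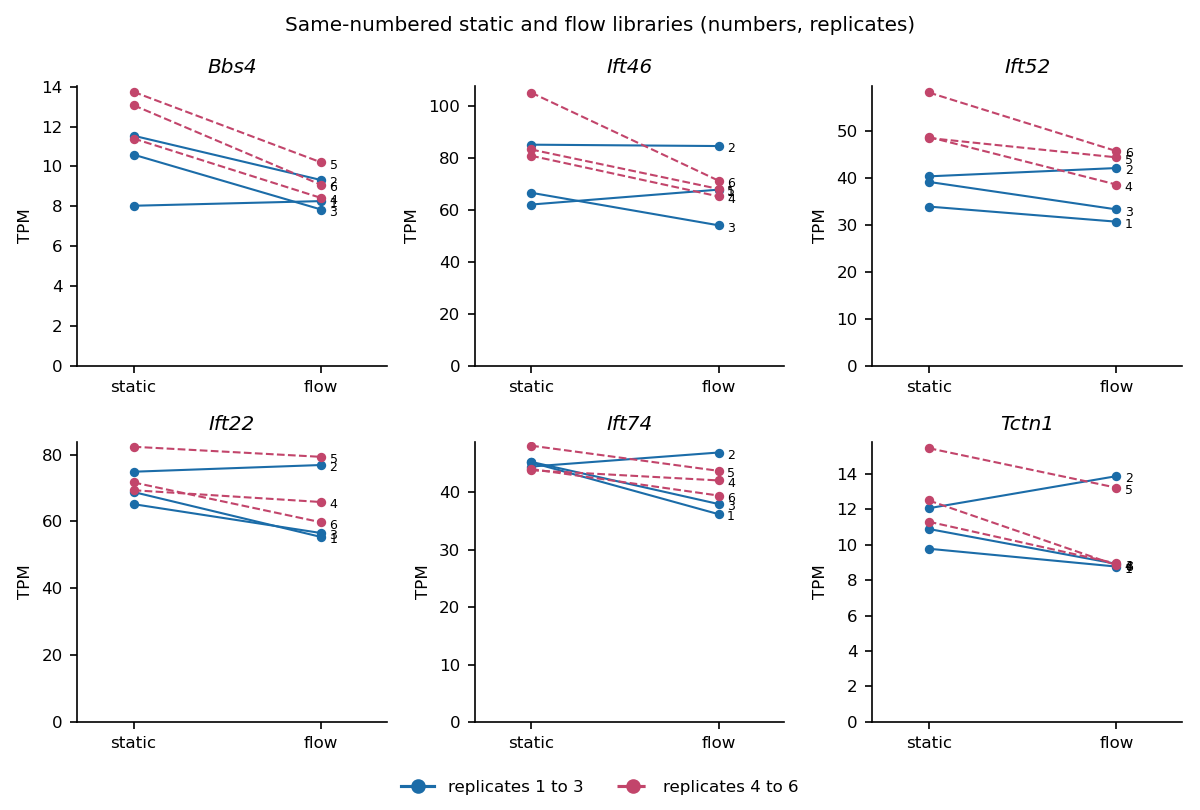
TPM (y axis, from 0) of the 6 genes with an unadjusted p under 0.05 in the blocked fit, with a line joining the static and flow library of each replicate number. Solid lines are replicates 1 to 3 and dashed lines replicates 4 to 6. In each gene 5 of 6 lines go down, and in Bbs4 and Ift46 every dashed line drops further in TPM than every solid one. In proportion this does not hold for Ift46, where replicate 3 (66.6 to 54.1 TPM) fell slightly more than replicate 5 (83.3 to 68.1 TPM).

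The replicate sets separated some genes that flow and static did not, and this was not particular to the 52. In 6 of the 52, all 6 libraries of replicates 4 to 6 were above all 6 of replicates 1 to 3, as they were for 8.60% of all genes tested, and in none were they all below, as they were for 0.834%. These 6 were Ift57, Kif3b, Tulp3, Tmem231, Mks1 and Cep290. Cep290 lay between 6.04 and 8.63 TPM in replicates 1 to 3 and between 8.73 and 13.6 TPM in replicates 4 to 6, and Mks1 between 2.72 and 3.54 TPM and between 3.57 and 5.06 TPM. Over the 52 genes the median log2 ratio of the replicate sets was 0.155, beside 0.127 for all genes tested. The labels do not say what the replicate number stands for.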

How the data were processed

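The mouse DC2 RNA-seq comprised flow against static (6 libraries each) and Ift88 siRNA against control siRNA (4 each). The authors deposited TPM in 1 table per experiment, summing to 1000000 per library. Per the study's methods and processing notes, the authors trimmed the reads (Trimmomatic in the methods, fastp 0.20.0 in the notes), checked them with FastQC 0.11.8 and MultiQC 1.8, quantified them with kallisto 0.46.2 on Ensembl 110 mouse transcripts, summarised genes with tximport and tested with DESeq2. TPM are not counts, so no count test was run. The paper gives a mean read depth over samples, but the depth of each library and behind each value is unknown. Every sample column was used, and 78 genes had no symbol.

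Values of log2(TPM + 1) entered limma 3.58.1 (lmFit and trended eBayes, R 4.3.3) for genes averaging 1 TPM or more within an experiment, and p-values were adjusted by Benjamini-Hochberg over all such genes. Genes were called at an adjusted p under 0.05 and over 1.5-fold. Intervals are 95% and unadjusted. Single genes were tested with two-sided exact permutation tests. In simulated data, 200 genes were changed by 1 on the log2 scale with independent noise, without the shared deviations of same-numbered libraries. There flow against static recovered 93.5% of them among 11388 genes, with 2.09% false calls. The siRNA comparison recovered 94.5% among 11209 genes, with 0.526% false calls. Recovery of smaller changes was not simulated. Python 3.11.15, numpy 2.4.6, pandas 2.3.3, scipy 1.17.1 and matplotlib 3.10.9 did the rest.

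The 52 genes, the other lists, the split of replicates 1 to 3 from 4 to 6 and the alternatives were chosen with earlier results of these data known. Of the 52, genes are named if they are Ift88, called, at an unadjusted p under 0.05 or without overlap between groups. The highest or lowest of each subgroup are named too, and others of the 52 by value only. Deviations from the group mean were correlated over genes between same-numbered flow and static libraries (r of 0.294, 0.463, 0.425, 0.468, 0.662 and 0.600 by number). As all passed 0.1 the numbers were treated as pairs, though number 3 did not match best with its own number. Gene positions are from GENCODE M21 (GRCm38), where 51 of 52 genes matched by Ensembl identifier. There 2 genes (Cluap1 and Mkks) share exon sequence with another gene of the table on the same strand and 8 on the opposite strand, Bbs4, Tctn1, Mkks, Bbs12, Inpp5e, Tmem67, Tmem216 and Cep290, and their levels are less certain for it. Alternatives were another pseudocount (0.1), no filter or a minimum mean of 5 TPM, library weights, the replicate block, scaling by the median of ratios, leaving out each library, the other label of flow replicate 6, each replicate set alone, and no fold threshold.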

Additional observations from a re-analysis of the deposited data

Results flagged for a closer look

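In 13 of 208 checks, a gene's highest or lowest library stood apart from the rest of its group by more than Dixon's 95% limit. That is 6.25% of the checks, and chance alone marks about 1 group in 20. In the static group, Ift27 measured 67.6 TPM in replicate 6, where the others lay between 81.8 and 89.4 TPM, and Bbs5 measured 10.8 TPM there, above 7.53 to 8.50 TPM. Ift74 at 48.2 TPM and Bbs7 at 26.2 TPM were high in static replicate 5, over 43.9 to 45.3 TPM and 21.3 to 22.8 TPM. In the flow group, replicate 5 was high for Dync2h1 (5.78 TPM over 2.91 to 3.59 TPM) and Ttc8 (12.6 TPM over 9.39 to 10.1 TPM), replicate 2 was high for B9d1 (39.6 TPM over 24.5 to 29.3 TPM), and replicate 6 was low for B9d2 (26.5 TPM under 31.1 to 33.8 TPM).

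With Ift88 siRNA, replicate 4 was low for Arl13b (12.5 TPM under 17.8 to 17.9 TPM), Nphp4 (3.59 TPM under 4.62 to 4.79 TPM) and Cep290 (7.94 TPM under 10.1 to 10.5 TPM), and replicate 1 was high for Mks1 (5.63 TPM over 4.06 to 4.29 TPM). Ift88 was also lowest in replicate 4, at 0.917 TPM, which the Dixon limit did not mark. With control siRNA, replicate 1 was low for Mkks (2.76 TPM under 3.59 to 3.62 TPM).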

How the results depend on the processing

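With the filter at a mean of 5 TPM, 0 of the 44 genes left were called in the siRNA comparison, because Ift88 itself is under that mean and was not tested. In the other 14 alternatives the count stayed at 1. Ift88 was called in all 13 alternatives that tested it, with log2 fold changes from -1.63 (pseudocount of 0.1) to -1.09 and adjusted p-values (limma) from 0.000841 to 0.0177, and from -1.26 to -1.09 when 1 library was left out. In the flow comparison no gene of the 52 was called in any of 22 alternatives. Genes at an unadjusted p under 0.05 ranged from 0 to 11 there, 11 with library weights, where 21.7% of all genes had one, and from 0 to 4 in the siRNA comparison, 4 with library weights, where 17.9% of all genes had one, and 4 without Ift88 siRNA replicate 4, where 14.1% had one. The median log2 fold change of the 52 ranged from -0.13 to -0.0234 under flow, and from -0.101 to -0.0234 with 1 library left out, and from -0.0184 to 0.0398 under Ift88 siRNA.

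The replicate block changed no call in either comparison. The siRNA numbers do not pair the libraries by the data (correlations of 0.0464, 0.00276, 0.259 and 0.176), and 2 of 4 numbers matched best. With that block 3 genes, Ift88, Dync2li1 and Ift122, had an unadjusted p under 0.05, where 18.2% of all genes had one, and Ift88 remained the gene called, at -1.17. TPM hold no depth, so no counting error could be given, and the intervals rest on the spread between libraries.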

Other observations

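Other ciliary genes were taken from listed groups, 62 in all. They cover further IFT, dynein-2 and BBSome genes, further transition zone and inversin genes, basal body and distal appendage genes, carriers of lipidated cargo, and genes of cilium disassembly. Of these 53 were in the tables. Under flow 50 were tested and none was called by limma. There 3 of the 50 had an unadjusted p under 0.05, or 6.0%, where 3.85% of all genes had one. With the replicate block 7 had one, or 14.0%, where 11.1% of all genes had one. Under flow 38 of the 50 were lower, where 61.2% of all genes were. Hspb11, which encodes the IFT25 partner of Ift27, averaged 46.9 ± 8.43 TPM in flow libraries and 56.6 ± 5.63 TPM in static ones (SD, n = 6 each), a log2 difference of -0.28 (SE 0.106, limma, adjusted p = 0.998).

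Under Ift88 siRNA 49 were tested and none was called at the same thresholds, while 4 had an unadjusted p under 0.05, or 8.16%, where 13.9% of all genes had one. With the replicate block 6 had one, or 12.2%, where 18.2% of all genes had one. Cep97, which caps centrioles with its partner CP110, measured 3.48 ± 0.0574 TPM in knockdown and 5.69 ± 0.605 TPM in control siRNA libraries (SD, n = 4 each) and fell by 0.58 on the log2 scale (SE 0.113, limma, adjusted p = 0.0480), just short of 1.5-fold, where 0.633% of all genes had an adjusted p under 0.05. Its highest knockdown library, at 3.53 TPM, was below its lowest control library, at 4.99 TPM, and the groups of 8.58% of all genes tested did not overlap either. Cep97 passed both thresholds with the TPM rescaled by the median of ratios (-0.59, limma, adjusted p = 0.0372) and with a pseudocount of 0.1 (-0.69, limma, adjusted p = 0.0473). With the low genes kept in, its adjusted p was 0.111. When any 1 of the 8 libraries was left out the difference was between -0.63 and -0.52 and the adjusted p (limma) between 0.0763 and 0.137. Arl2, a relative of Arl3 that releases lipidated cargo, was at 212 and 177 TPM, a difference of 0.26 (SE 0.0632, limma, adjusted p = 0.0905). Hspb11, Cep97 and Arl2 were named after their values were seen, and other listed genes with an unadjusted p under 0.05 were only counted. Among those, Lztfl1 had a larger difference under flow than Hspb11, at -0.31 (SE 0.121, limma, adjusted p = 0.998).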
